A study of Mus musculus with 3 samples.

Results

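The prefrontal cortex (PFC) of BTBR T+ Itpr3tf/J mice (BTBR), an inbred strain used as a model of autism-like behavior, was compared with that of C57BL/6 mice by single-nucleus RNA sequencing. The genes described here were chosen by their measured level in excitatory neurons: a gene was a member when BTBR stood at least 2-fold above, or at least 2-fold below, both of the other libraries. There were 49 such genes among 3895 genes that reached 50 CPM in any library (counts of a gene per 1000000 counts of the nuclei read), of 32285 genes in the files. BTBR was higher for 21 and lower for 28. Because the choice used the levels in these nuclei, those levels are given as a description and carry no test.

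Each group was 1 library of pooled PFC nuclei from male mice of 6 to 8 weeks. The C57BL/6 library held wild-type tissue of 5 mice. The *Nav1* KO library held tissue of 4 mice, in which a part of exon 1 of the neuron navigator gene *Nav1* was deleted by CRISPR on the C57BL/6J background, so both comparison libraries had the C57BL/6 genome outside that edit. For BTBR the labels give the strain and no engineered change, and how many mice were pooled is not given in the sources used here. The nuclei were sorted on NeuN, a nuclear protein of neurons, with NeuN-negative nuclei added. With 1 library per group, strain, litter, dissection and library preparation cannot be told apart, and neither can the fit of BTBR reads to a reference genome that comes from C57BL/6J. There was no replicate check of any value below.

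Excitatory neurons of the cortex release glutamate and send axons between layers, areas and hemispheres. The vesicular transporter *Slc17a7* loads glutamate into their synaptic vesicles. The BTBR strain is known for the absence of the corpus callosum, the tract that carries axons of these neurons between the hemispheres, for low social approach and for repetitive grooming. Inbred strains differ from C57BL/6 at many sites across the genome, and such sites can alter a promoter, a splice site or the end of a transcript, where 3′ tag counting reads a gene.

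Nuclei with fewer than 200 genes, or with 10% or more of their counts from mitochondrial genes, were left out. The excitatory gate took kept nuclei with at least 1 *Slc17a7* UMI (a unique molecule count) and none of the GABA genes *Gad1*, *Gad2* and *Slc32a1* or of the olfactory bulb genes *Cdhr1*, *Eomes* and *Doc2g*. Kept nuclei with *Slc17a7* numbered 8787 in C57BL/6, 9288 in *Nav1* KO and 9741 in BTBR. Of these, 1578, 2160 and 2676 held a GABA gene and 903, 2028 and 2389 an olfactory bulb gene, so the exclusions took the most nuclei from BTBR. The gate held 6548 C57BL/6, 5757 *Nav1* KO and 5583 BTBR nuclei, with 18348232, 20733756 and 17154189 counts. The 6 excitatory markers other than *Slc17a7*, which the gate itself required, summed to 834, 803 and 789 CPM in these nuclei and to 372, 280.5 and 337 CPM in inhibitory (GABA) nuclei. Markers of other cells were also present in these nuclei, some lists at sums not far below that of the 6 excitatory markers. The list of striatal medium spiny neurons summed to 672, 513 and 522 CPM, highest in C57BL/6. The inhibitory list summed to 102, 73.6 and 147 CPM, highest in BTBR, and the oligodendrocyte list to 239, 212 and 162 CPM, lowest in BTBR. The astrocyte list summed to 617, 705 and 643 CPM and the microglia list to 36.5, 38.7 and 49.3 CPM. Their part in the differences was not tested. Between 61 and 71 cell barcodes were shared by any pair of libraries.

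*Nav1* was read in every library first. It stood at 337 CPM in C57BL/6, 219 CPM in *Nav1* KO and 135 CPM in BTBR. The counted 3′ end lies outside the deleted part of exon 1, so this level does not check the KO label. The BTBR library had the lowest *Nav1* level of the 3, at a ratio of 0.400 to C57BL/6 and 0.615 to *Nav1* KO. In each of the 7 other gates described below it was again lowest in BTBR, between 66.1 CPM in astrocyte nuclei and 164 CPM in layer 5 ET nuclei. *Nav1* missed membership because its ratio to the KO library was within 2-fold.

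The 49 members were 1.26% of the tested genes, with 0.539% higher and 0.719% lower. The same rule applied to the other libraries picked 5 genes for C57BL/6 (0.128%) and 1 for *Nav1* KO (0.0257%). Those libraries share the C57BL/6 genome outside the edit, so a strain difference could not set either apart from both others. Their shares, here and at 1.5-fold, are therefore not a like background. At 1.5-fold, 61 genes were higher (1.57%) and 69 lower (1.77%) in BTBR, together 3.34%, against 98 genes for C57BL/6 (2.52%) and 12 for *Nav1* KO (0.308%). At 3-fold, 6 genes were higher (0.154%) and 14 lower (0.359%), together 0.513%. By any amount, 40.5% of tested genes were highest in BTBR and 19.0% lowest. The median ratio of BTBR was 0.993 to C57BL/6 and 1.08 to *Nav1* KO, so a ratio to the KO library has to be read against that shift. The 2 comparison ratios of a gene share the BTBR library and are not independent.

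**Figure D1:**
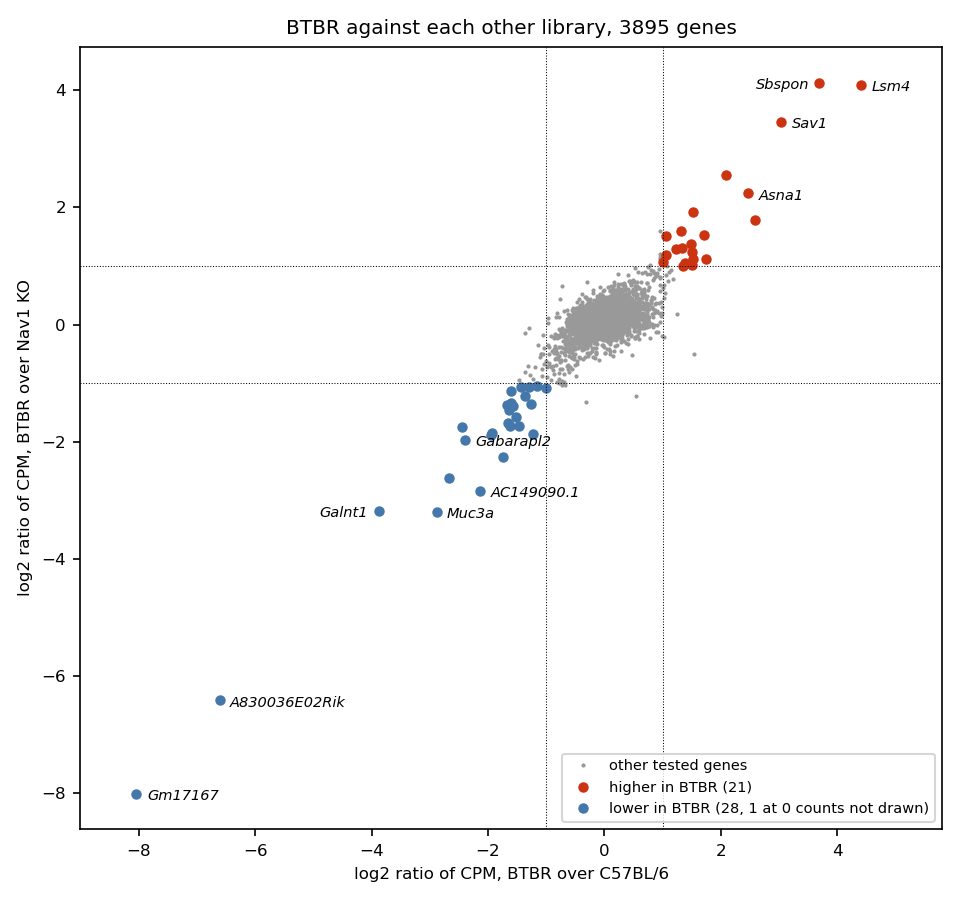
Each point is one of the 3895 tested genes, placed by the log2 ratio of its CPM in BTBR to C57BL/6 (horizontal axis) and to *Nav1* KO (vertical axis), with dotted lines at 2-fold. The 21 genes higher in BTBR lie at the upper right up to *Lsm4*, and the 28 genes lower lie at the lower left down to *Gm17167*, while the gene at 0 counts in BTBR, *Gm12027*, is not drawn.

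Values in the next paragraphs are CPM in the excitatory gate, in the order C57BL/6, *Nav1* KO and BTBR, and a fold is that of BTBR to the nearer of the other libraries. Coordinates are those of GRCm38. Brackets hold exact 95% intervals, which cover counting error only. The arrangement of members by role was made after their values were seen.

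Transcripts almost missing from BTBR came first among the lower genes. *Gm12027*, a long non-coding RNA (chr11:19626761-19628061), stood at 190 and 124 CPM, from 3485 and 2569 counts, and had 0 counts in BTBR. With the BTBR count set to 3 (0.175 CPM), *Gm12027* was 708-fold lower. The exact interval for 0 counts reached higher, to 0.215 CPM, and that for the ratio to *Nav1* KO reached 0.00174. *Gm17167*, a processed transcript (chr4:42206998-42235313), stood at 291, 284 and 1.11 CPM, with 19 counts left in BTBR, 257-fold lower. *A830036E02Rik*, an antisense transcript (chr11:99416956-99425497), stood at 188, 164 and 1.92 CPM, 85.3-fold lower. All of these are non-coding. Their *Nav1* KO to C57BL/6 ratios were 0.652, 0.977 and 0.875. The comparison libraries were thus close for *Gm17167* and *A830036E02Rik* and further apart for *Gm12027*, while BTBR was near 0 for each.

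*A830036E02Rik* lies on the strand opposite the keratin gene *Krt12*, which was at 11.1, 10.2 and 1.87 CPM and so was also lowest in BTBR. The ends of 2 of the 3 near-absent transcripts are not unique in the annotation. Of the 31-base words in the last 500 bases of *Gm17167* transcripts, 100% occur in a transcript of another gene, and for *Gm12027* the share is 58.6%. Reads from such ends can be shared with or lost to a near-identical copy, so these levels are uncertain.

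*AC149090.1*, a coding gene on an unplaced scaffold of the mouse assembly, was the most abundant member by count. It stood at 1614 CPM [1596 to 1633], 2642 CPM [2620 to 2664] and 369 CPM [360 to 378]. BTBR was 4.38-fold below C57BL/6 and 7.16-fold below *Nav1* KO, and the comparison libraries themselves lay 1.64-fold apart.

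Genes of protein glycosylation and secretion were among the lower members. *Galnt1*, which starts mucin-type O-glycosylation by adding GalNAc to serine and threonine, stood at 269 CPM [262 to 277], 166 CPM [161 to 172] and 18.3 CPM [16.3 to 20.4]. BTBR was 9.09-fold lower than *Nav1* KO and 14.7-fold lower than C57BL/6. *Muc3a*, a membrane mucin, was at 42.6, 52.8 and 5.77 CPM, 7.38-fold lower from 99 BTBR counts. *Cog5*, a subunit of the Golgi tethering complex COG, was at 66.4, 61.7 and 29.7 CPM, 2.08-fold lower. *Galnt1* also differed between the comparison libraries, yet both exceeded BTBR by far more than they differed from each other.

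*Gabarapl2*, an Atg8-family protein of the autophagosome membrane (chr8:111940703-111953612), was at 123 CPM [118 to 128], 91.4 CPM [87.3 to 95.6] and 23.4 CPM [21.1 to 25.8], 3.91-fold lower. Its BTBR interval lay far below those of the other libraries.

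The lower members included 2 ciliary genes and a centromere gene. *Rpgrip1*, a protein of the photoreceptor connecting cilium, stood at 50.8, 31.6 and 9.39 CPM, 3.37-fold lower. *Ttc8*, a subunit of the BBSome that carries proteins into cilia, was at 121, 107 and 40.7 CPM, 2.62-fold lower. *Hjurp*, the chaperone that places the centromeric histone CENP-A, was at 108, 112 and 37.5 CPM, 2.87-fold lower. The ciliary genes *Cep19* and *Cfap54* were members on the higher side.

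Among genes of RNA and protein synthesis, *Ints7*, a subunit of the Integrator complex that processes small nuclear RNA, stood at 76.1 CPM in C57BL/6 and 71.8 CPM in *Nav1* KO, and BTBR was 3.59-fold lower with 343 counts. *Rpl29*, a protein of the large ribosomal subunit, was at 38.2, 55.0 and 11.4 CPM, 3.34-fold lower. *Rpl29* has many near-identical copies, and 57.7% of its end words occur in another gene's transcripts, so its level is uncertain. Of 36 tested cytosolic ribosomal protein genes it was the only one past 2-fold, and the list's median ratios were 0.969 to C57BL/6 and 1.10 to *Nav1* KO.

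Of the genes of the mitochondrial genome, 1 was a member. *mt-Nd3*, a complex I subunit encoded in mitochondrial DNA, stood at 132, 95.1 and 43.4 CPM, 2.19-fold lower. All 10 tested genes of the mitochondrial genome were lowest in BTBR, with median ratios of 0.761 and 0.813, but the others were within 1.5-fold of the nearer library. *mt-Co1*, for example, was at 622, 652 and 487 CPM. The share of mitochondrial counts in the gate was 0.669%, 0.599% and 0.489%, lowest in BTBR, and 98.1% of the *mt-Nd3* end words occur in another gene's transcripts. The nuclear gene *Cisd2*, an iron-sulfur protein of the outer mitochondrial membrane and endoplasmic reticulum, was at 112, 119 and 55.7 CPM, 2.01-fold lower.

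The remaining lower members had varied roles. *Pxdn*, an extracellular peroxidase that cross-links collagen IV, stood at 133, 135 and 42.5 CPM, 3.14-fold lower. *Mri1*, an enzyme of methionine salvage, was at 51.6, 45.3 and 16.5 CPM, and *Ankrd33b*, an ankyrin repeat gene, at 134, 161 and 48.5 CPM. *Mt3*, the metallothionein of brain that binds zinc and copper, was at 39.9, 61.5 and 17.0 CPM, 2.35-fold lower. The non-coding *E230029C05Rik* and *5430405H02Rik* were 3.71-fold and 3.09-fold lower. The folds of *Dennd4c* (a regulator of Rab proteins), *Klhl7* (a substrate adaptor of a ubiquitin ligase), the zinc finger genes *Zfp260* and *Zfp157*, *Ica1* (a BAR domain protein of secretory vesicles) and *Dstn* (destrin, which severs actin) lay between 2.08 and 2.58.

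**Figure D2:**
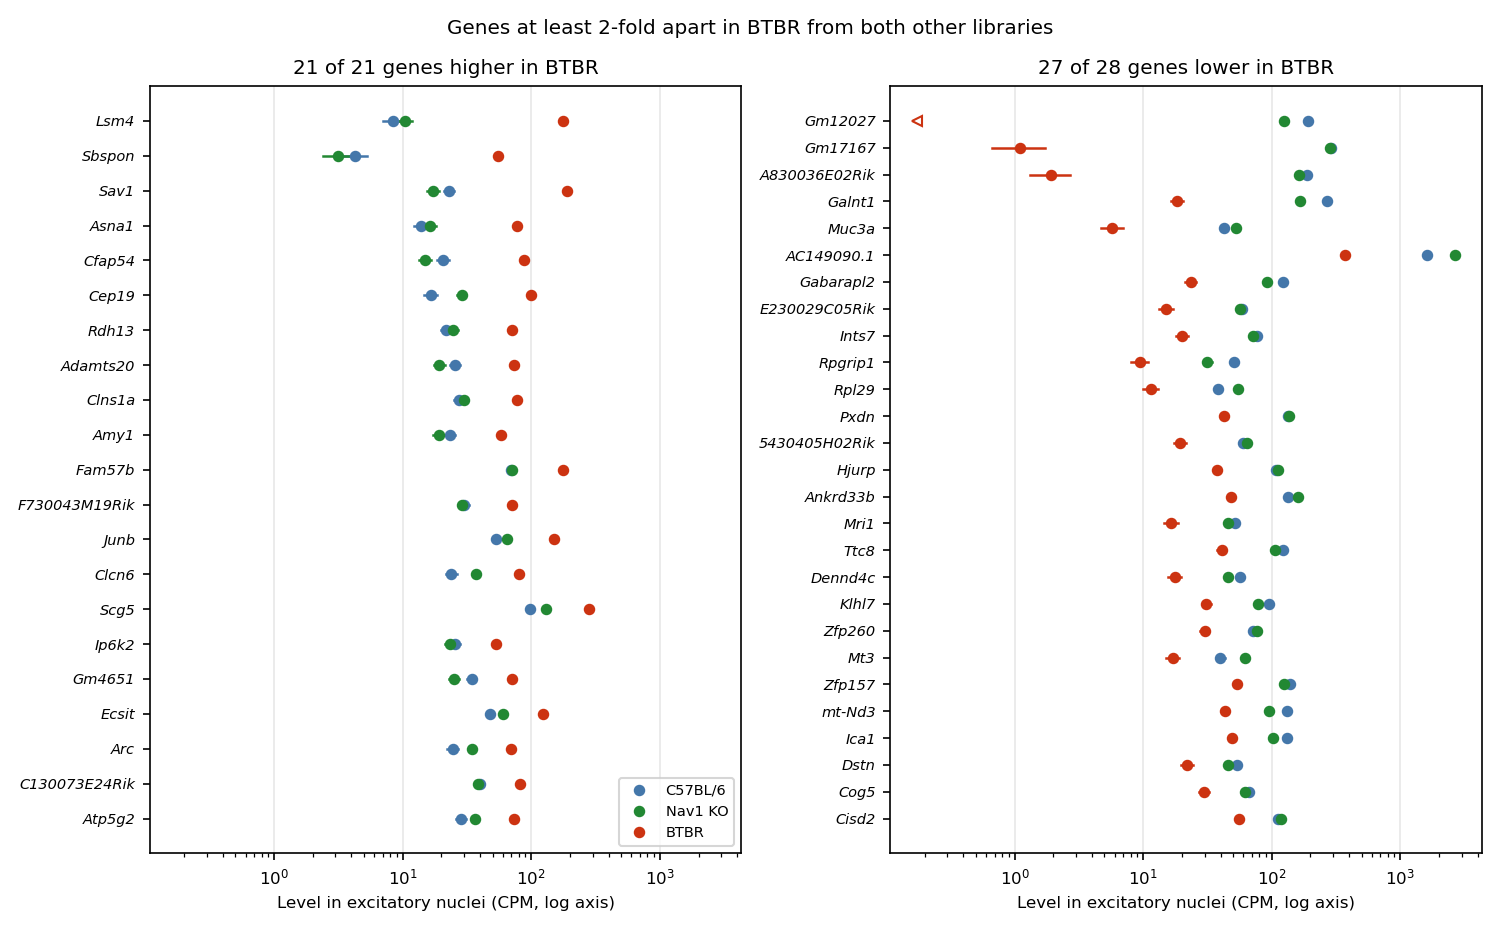
Levels in excitatory nuclei (CPM, log axis) are drawn for the 21 higher and 27 of the 28 lower members, with 1 point per library. The exact 95% counting interval is a line, where this is wider than the point. The open triangle marks 0 counts, drawn at 0.175 CPM, the level of 3 counts. In the left panel every red BTBR point lies to the right of both others and in the right panel to the left, and the C57BL/6 and *Nav1* KO points lie close together for most genes.

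The highest ratio was that of *Lsm4*, a subunit of the Lsm ring that binds U6 small nuclear RNA and takes part in mRNA decay (chr8:70673248-70678752). It stood at 8.34 CPM [7.07 to 9.77], 10.4 CPM [9.07 to 11.9] and 178 CPM [171 to 184], 17.1-fold higher. *Clns1a*, which brings Sm proteins to the machine that assembles spliceosomal RNPs, was also higher at 27.5, 29.9 and 77.5 CPM, 2.60-fold. The C57BL/6 and *Nav1* KO levels of *Lsm4* had overlapping intervals, and those of *Clns1a* did too.

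*Sav1* encodes salvador, the scaffold of the Hippo kinases that restrain tissue growth (chr12:69965012-69987002). It stood at 22.9 CPM [20.8 to 25.2], 17.2 CPM [15.4 to 19.0] and 189 CPM [182 to 195], 8.22-fold higher. *Atl1*, which overlaps *Sav1* on the opposite strand, was at 111, 108 and 144 CPM. The overlapping gene was thus also highest in BTBR, by a much smaller ratio.

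Higher members also included genes of secretion, a role held by some lower members too. *Sbspon*, a secreted protein with a thrombospondin repeat (chr1:15853862-15892722), stood at 4.25 CPM [3.36 to 5.31], 3.13 CPM [2.42 to 4.00] and 55.0 CPM [51.5 to 58.6], 12.9-fold higher. *Asna1*, the ATPase that delivers tail-anchored proteins to the endoplasmic reticulum, was at 13.9, 16.4 and 77.2 CPM, 4.72-fold higher. *Adamts20*, a secreted metalloprotease, was at 25.6, 19.3 and 73.5 CPM, 2.87-fold higher.

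*Scg5*, the neuroendocrine chaperone 7B2 of prohormone convertase PC2, was at 97.4, 130 and 281 CPM, 2.17-fold higher. It was the most abundant of the higher members in counts, with 4827 in BTBR. *Clcn6*, a chloride and proton exchanger of late endosomes, was at 24, 37.0 and 80.8 CPM, 2.18-fold higher.

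The other higher members had varied roles. *Cfap54*, a protein of the ciliary axoneme, stood at 20.7, 15.0 and 88.2 CPM, 4.27-fold higher, and *Cep19*, a centriole protein needed to form cilia, at 16.5, 28.7 and 99.7 CPM, 3.47-fold higher. *Rdh13*, a mitochondrial retinol dehydrogenase, was at 21.8, 24.5 and 71.3 CPM, 2.90-fold higher. *Ecsit*, an assembly factor of complex I and adaptor of Toll signaling, was at 47.4, 60.3 and 124 CPM, and *Atp5g2*, a gene of the ATP synthase c subunit, at 28.5, 36.5 and 73.1 CPM.

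*Fam57b*, a gene of ceramide metabolism, was at 69.3, 70.9 and 175 CPM, 2.48-fold higher. *Amy1*, salivary amylase, was at 23.2, 19.1 and 57.8 CPM, 2.49-fold higher. *Amy1* shares its locus and strand with *Rnpc3*, a protein of the minor spliceosome, which was at 233, 255.6 and 452 CPM, so reads of the pair may not be separable. *Ip6k2*, an inositol hexakisphosphate kinase, and the non-coding *F730043M19Rik*, *Gm4651* and *C130073E24Rik* were between 2.02-fold and 2.35-fold higher.

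At the edge of the rule, the members nearest to 2-fold on the higher side were *Atp5g2* at 2.00-fold and *C130073E24Rik* at 2.02-fold, and the genes just outside were *Btg2* at 1.99-fold and *Ndst4* at 1.95-fold. On the lower side *Cisd2* at 2.01-fold and *Cog5* at 2.08-fold were inside, and *Aste1* at 1.93-fold and *Caskin1* at 1.89-fold were outside. Of the 49 members, 38 stayed past 2-fold under all 10 other choices of nuclei or scaling. The other 11 were *Arc*, *Atp5g2*, *C130073E24Rik*, *Clcn6*, *Ecsit*, *F730043M19Rik*, *Gm4651*, *Cisd2*, *Dstn*, *Ica1* and *mt-Nd3*.

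Immediate early genes, which neurons transcribe within minutes of activity and calcium entry, were the only one of the gene lists with members on the higher side. Several other lists, such as the microglia and endothelial ones, had no tested gene. Of 18 listed immediate early genes 8 were tested, and 2 were higher past 2-fold, *Junb* and *Arc*, beside 0.539% of all tested genes. *Junb*, a transcription factor of the AP-1 family, stood at 53.0 CPM [49.7 to 56.5], 64.2 CPM [60.8 to 67.8] and 151 CPM [145 to 157], 2.35-fold higher. *Arc*, a cytoskeletal protein that drives the uptake of AMPA receptors, was at 24.5 CPM [22.3 to 26.9], 34.4 CPM [32.0 to 37.1] and 69.7 CPM [65.8 to 73.7], 2.02-fold higher.

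At 1.5-fold 5 of the 8 were higher and 0 lower, beside 1.57% and 1.77% of all tested genes. The list's median ratios were 1.80 to C57BL/6 and 1.73 to *Nav1* KO beside 0.993 and 1.08 over all tested genes. *Arc*, *Npas4*, *Nr4a1* and *Btg2* reached the limit of 50 CPM only in BTBR, so the limit favored listed genes that were high there. The counts past 1.5-fold and 2-fold and these medians are therefore partly set by the limit. Of the listed genes that reached it in another library (*Junb*, *Egr1*, *Homer1* and *Bdnf*), only *Junb* was past 1.5-fold. *Npas4*, an activity-dependent transcription factor, was at 37.3, 43.2 and 77.9 CPM. *Nr4a1*, an orphan nuclear receptor, was at 40.6, 39.8 and 61.2 CPM, and *Btg2*, an antiproliferative co-regulator, at 29.2, 30.9 and 61.6 CPM. The other tested genes were not past 1.5-fold.

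Among those, *Egr1*, a zinc finger factor, was at 57.2, 49.7 and 81.9 CPM. *Bdnf*, a neurotrophin, went the other way at 43.1, 50.1 and 34.3 CPM, and *Homer1*, a scaffold of metabotropic receptors, was at 201, 181 and 198 CPM with BTBR between the others. Several listed genes were below the limit of 50 CPM but had many counts. *Fos* was at 7.85, 8.25 and 28.9 CPM, *Egr4* at 17.9, 17.7 and 49.0 CPM, and *Dusp1* at 10.7, 12.5 and 30.1 CPM. Over all 18 genes, 14 were highest in BTBR and 1 was lowest, beside 40.5% and 19.0% of the tested genes. The tested genes all reached 50 CPM, which many of the 18 did not, so these shares are not of like genes.

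The sum of the 18 genes was 613, 611 and 959 CPM. The median UMIs of the gated nuclei were 2428, 3088 and 2719, with BTBR between the others, and the share of *Malat1* counts was 25.7%, 31.1% and 26.7%. The 6 tested heat and cold shock genes had none past 1.5-fold and median ratios of 1.14 and 1.03. The handling of the mice before dissection and the time to lysis are not given per library, and their part in these levels was not tested.

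**Figure D3:**
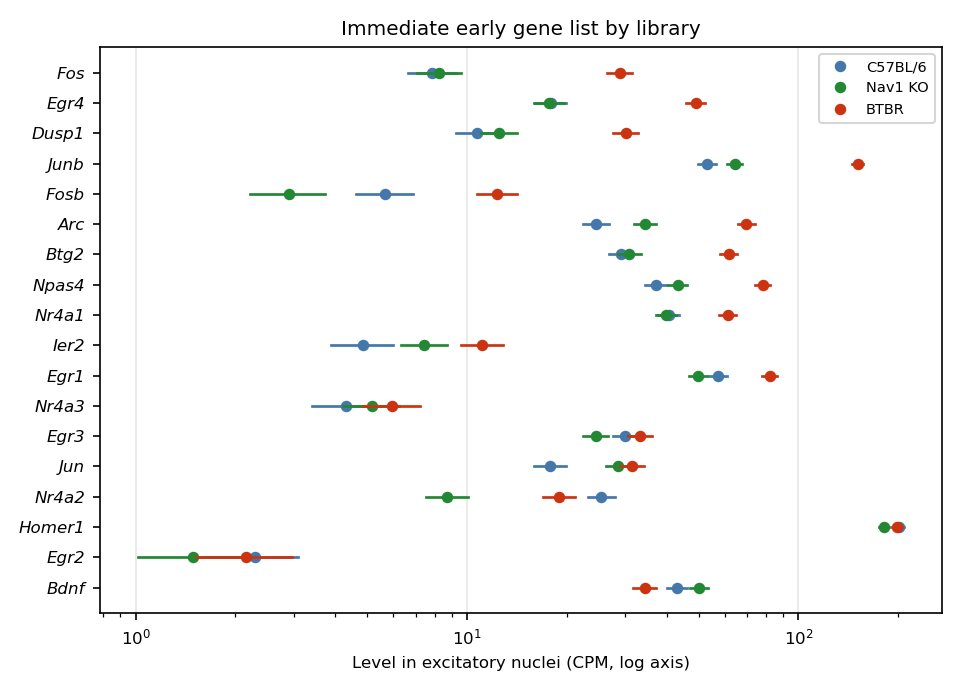
The 18 listed immediate early genes are placed by their level in excitatory nuclei (CPM, log axis), with 1 point per library and its exact 95% counting interval as a line. From *Fos* down to *Egr1* the BTBR point lies to the right of both others with no overlap of the points, while *Homer1* and *Egr2* show BTBR between or beside the others and *Bdnf* shows it to the left.

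Many immediate early genes are switched on by CREB, a factor that binds the cAMP response element in their promoters. Of the 5 tested immediate early genes past 1.5-fold, the 4 with a promoter entry in RefSeq (GRCm38.p6) are therefore shown, as the 250 bases before the start of the transcript, 5′ to 3′ on the strand of the gene. *Arc* had no entry. Capitals mark the half-site TGACG or its reverse complement CGTCA, searched on both strands, and in *Btg2* a forward and a reverse half-site overlap as the full element TGACGTCA. The windows lie at chr8:84978749-84978998 (minus strand), chr19:4989972-4990221 (minus), chr15:101266596-101266845 (plus) and chr1:134079156-134079405 (minus).
Junb: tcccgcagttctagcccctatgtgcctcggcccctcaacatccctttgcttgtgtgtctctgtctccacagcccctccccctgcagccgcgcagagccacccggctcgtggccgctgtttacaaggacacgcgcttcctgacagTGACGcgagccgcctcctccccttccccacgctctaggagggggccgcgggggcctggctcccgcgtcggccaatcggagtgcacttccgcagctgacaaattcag
Npas4: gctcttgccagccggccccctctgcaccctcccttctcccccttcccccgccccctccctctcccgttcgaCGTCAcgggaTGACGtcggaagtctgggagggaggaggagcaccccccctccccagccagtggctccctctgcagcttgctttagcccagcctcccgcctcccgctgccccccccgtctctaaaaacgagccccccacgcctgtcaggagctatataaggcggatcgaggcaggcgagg
Nr4a1: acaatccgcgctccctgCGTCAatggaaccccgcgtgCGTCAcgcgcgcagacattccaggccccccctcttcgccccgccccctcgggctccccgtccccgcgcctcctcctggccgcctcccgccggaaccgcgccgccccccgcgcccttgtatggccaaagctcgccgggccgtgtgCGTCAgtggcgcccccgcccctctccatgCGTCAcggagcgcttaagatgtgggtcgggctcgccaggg
Btg2: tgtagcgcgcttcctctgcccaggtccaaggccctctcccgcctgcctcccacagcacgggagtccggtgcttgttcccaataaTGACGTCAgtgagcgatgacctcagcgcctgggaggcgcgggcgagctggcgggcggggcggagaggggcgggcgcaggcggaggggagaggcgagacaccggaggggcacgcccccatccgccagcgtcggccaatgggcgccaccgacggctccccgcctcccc

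*Junb* held 1 half-site, *Npas4* 2, *Nr4a1* 4 and *Btg2* 2. Among listed genes not past 1.5-fold, *Nr4a2* and *Nr4a3* held 4 each and *Jun* 0. By promoter, *Homer1* held 0 or 3, *Egr2* 0 or 2 and *Bdnf* 0 or 1, so half-sites were not particular to the genes shown. The half-site occurred in 17.8% and the full element in 1.55% of 32851 mouse promoters of the same length. Among 25 promoters of 14 listed immediate early genes, 15 held the half-site and 2 the full element, those of *Btg2* and *Dusp1*. A match of letters describes the window and does not show binding, and the promoters printed are those of the reference genome, not of BTBR.

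The gated nuclei were then split by layer markers to see whether the differences came from nuclei of one layer. The layer gates held 807 to 1075 nuclei per library for layer 2/3, 627 to 775 for layer 4/5 IT (intratelencephalic), 293 to 362 for layer 5 ET (extratelencephalic) and 603 to 830 for layer 6. These are the same nuclei that chose the members, so the values are a description. All 49 members kept their direction in all 4 layer gates, beside 25.5% of tested genes that lay on one side of both other libraries in all 4. There were 48 members past 1.5-fold in all 4 (2.11% of tested genes) and 31 past 2-fold in all 4 (0.796%). The tested genes past 2-fold in all 4 were those same 31 members, so that share is not a separate background. Since the layer gates are parts of the nuclei that chose the members, a kept direction was favored in advance. The exception at 1.5-fold was *F730043M19Rik*, whose log2 ratio to the nearer library was 0.45 in layer 4/5 IT and 1.51 in layer 2/3.

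*Lsm4* in layer 2/3 stood at 9.66, 9.86 and 266 CPM and in layer 5 ET at 7.92, 11.7 and 107 CPM, so the ratio was high in both while the BTBR level differed between layers. *Sav1* lay between 153 and 199 CPM in the 4 BTBR layer gates and between 14.5 and 28.2 CPM in those of the other libraries. *Galnt1* lay between 16.4 and 23 CPM in BTBR and between 138 and 313 CPM in the others. For these genes no layer gate of BTBR overlapped one of the other libraries.

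The immediate early genes were read in the same way. *Arc* stood at 24.4, 33.9 and 101 CPM in layer 4/5 IT and at 38.6, 45.1 and 68.5 CPM in layer 6. *Fos* was at 8.79, 6.91 and 42.6 CPM in layer 4/5 IT and at 8.50, 6.88 and 19.6 CPM in layer 6. Of the listed genes with at least 20 counts over the libraries, 16 of 17 were highest in BTBR in layer 4/5 IT (38.3% of tested genes), with 11 past 1.5-fold (1.80%). In layer 6 it was 13 of 17 (36.1%), with 7 past 1.5-fold (1.67%). These shares are over tested genes, while many of the listed genes were below 50 CPM and carry more counting error. Whether the ratios differ between layers was not tested, since there was 1 library per group.

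Nuclei that played no part in the choice of the members gave a second reading in the same libraries. The GABA gate (inhibitory neurons, with at least 2 UMIs of *Gad1*, *Gad2* and *Slc32a1* and no *Slc17a7*) held 654 C57BL/6, 845 *Nav1* KO and 992 BTBR nuclei. The astrocyte gate (at least 2 UMIs of *Aqp4* and *Slc1a3*) held 340, 709 and 529 nuclei and the oligodendrocyte gate (at least 2 UMIs of *Mag*, *Mog* and *Mobp*) 168, 120 and 119, both without *Slc17a7*, *Gad1* and *Gad2*. The GABA gate also held markers of striatal medium spiny neurons, which summed to 2182, 1169 and 1263 CPM. RNA of excitatory neurons reached all of these gates: *Neurod6* and *Tbr1*, excitatory transcription factors, stood there at 0.111 to 0.600 of their level in the excitatory gate. A member at that share of its excitatory level in another gate therefore cannot be told apart from carried-over RNA. All counts below are of members with at least 20 counts over the 3 libraries in a gate. Of the higher members, only *Fam57b*, *Junb*, *Scg5* and *Ecsit* reached 50 CPM in excitatory nuclei of another library. The others were tested only because BTBR was high, so the shares of tested genes beside the higher members are not of like genes.

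In GABA nuclei all 21 higher members were again highest in BTBR, beside 40.6% of tested genes, and all 28 lower members were lowest, beside 17.6%. At 1.5-fold the counts were 19 of 21 (background 1.69%) and 26 of 28 (1.31%), and at 2-fold 13 of 21 (0.462%) and 22 of 28 (0.616%). *Lsm4* stood at 12.7, 13.1 and 124 CPM in GABA nuclei and *Sav1* at 19.3, 21.5 and 169 CPM. *Muc3a* stood at 42.3, 39.0 and 4.39 CPM. In excitatory nuclei the BTBR levels of *Lsm4*, *Sav1* and *Muc3a* were 178, 189 and 5.77 CPM. The fold of *Lsm4* was 9.46 in GABA nuclei, beside 17.1 in excitatory nuclei.

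In astrocyte nuclei 20 of 21 higher members were highest in BTBR (35.3%) and 27 of 28 lower members lowest (25.3%). At 1.5-fold the counts were 16 (2.83%) and 25 (2.49%), and at 2-fold 6 (0.437%) and 19 (0.694%). *Mt3* was at 164, 249 and 57 CPM in astrocyte nuclei, above its excitatory levels in each library and again lowest in BTBR. Astrocyte markers were also present in the excitatory gate. The part of astrocyte RNA in the excitatory *Mt3* levels of 39.9, 61.5 and 17.0 CPM was not tested. *Asna1* was at 5.07, 12.3 and 71.2 CPM. *Gm17167* was at 154 and 93.4 CPM, and BTBR had 0 counts.

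In oligodendrocyte nuclei, the smallest gate, 15 higher and 22 lower members had enough counts. Of these 14 were highest (41.0%) and 21 lowest in BTBR (26.3%). At 1.5-fold the counts were 12 (7.16%) and 16 (6.49%), and at 2-fold 9 (1.71%) and 13 (2.29%). *Sav1* was at 30.0, 24.9 and 282 CPM, from 7, 6 and 59 counts. *Hjurp* was at 159, 166 and 47.8 CPM, from 37, 40 and 10 counts.

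Across the 3 gates together, 37 members had enough counts in each. Of these 35 kept their direction in all 3 (17.4% of 3574 tested genes lay on one side in all 3), 27 were past 1.5-fold in all 3 (0.951%, or 34 genes) and 13 were past 2-fold in all 3 (0.364%, or 13 genes). Each of the 13 genes past 2-fold in all of these nuclei was thus a member. Among them were *Lsm4*, *Sav1* and *Asna1* on the higher side and *A830036E02Rik*, *Gm17167*, *AC149090.1*, *Gabarapl2*, *Rpl29*, *Hjurp*, *5430405H02Rik*, *mt-Nd3* and *Mt3* on the lower side. Some of their levels lay within the range of carried-over RNA given above. In BTBR, *Lsm4* was at 36.6 CPM in astrocyte and 62.1 CPM in oligodendrocyte nuclei, beside 178 CPM in excitatory nuclei. *Asna1* in BTBR lay outside that range, at 71.2 and 76.5 CPM beside 77.2 CPM. No member went the opposite way by 1.5-fold in any gate.

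*Pxdn*, *Adamts20* and *Gm4651* did not keep their direction in all of the other nuclei in which they had enough counts. *Gm4651* was at 16.9, 11.7 and 14.2 CPM in astrocyte nuclei, with BTBR between the others. *Pxdn* was at 74.3, 49.0 and 36.6 CPM in GABA nuclei, at 62.5, 57.7 and 59.0 CPM in astrocyte nuclei and at 21.4, 33.3 and 43.0 CPM in oligodendrocyte nuclei. *Adamts20* was at 19.9, 18.3 and 42.4 CPM in GABA nuclei and at 47.2, 49.9 and 33.4 CPM in oligodendrocyte nuclei, where it had 7 counts in BTBR. Of the immediate early genes with enough counts, 8 of 17 were highest and 2 lowest in BTBR in GABA nuclei, 8 of 14 highest and 2 lowest in astrocyte nuclei, and 4 of 4 highest in oligodendrocyte nuclei, beside 40.6%, 35.3% and 41.0% of tested genes that were highest. Past 1.5-fold, 5, 6 and 2 were higher, beside 1.69%, 2.83% and 7.16% of tested genes, and 0 were lower. Here too the listed genes include untested ones below 50 CPM, which the shares do not cover. The limit from carried-over RNA holds for these genes too. In BTBR astrocyte nuclei *Arc* was at 22.4 CPM, beside 69.7 CPM in excitatory nuclei, while *Btg2* was at 82.4 CPM beside 61.6 CPM. *Junb* was at 49.6, 43.0 and 104 CPM and *Fos* at 12.7, 11.6 and 24.9 CPM in GABA nuclei, whereas *Egr4* was at 19.9, 8.37 and 19.8 CPM there and *Nr4a1* at 44.7, 30.3 and 38.0 CPM.

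**Figure D4:**
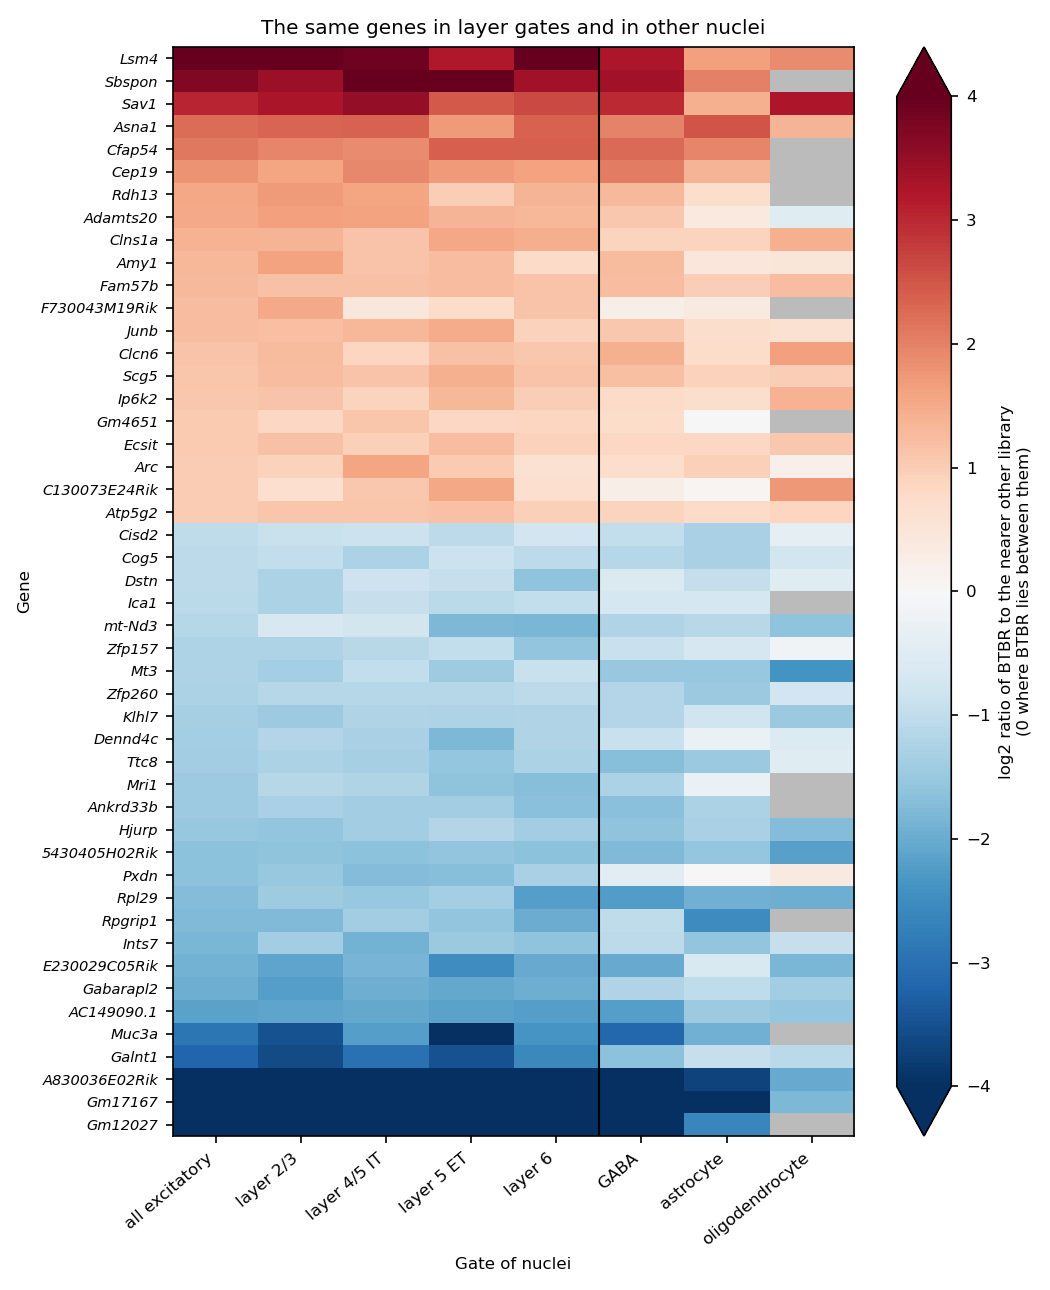
Rows are 48 of the 49 members and columns the gates of nuclei, and color gives the log2 ratio of BTBR to the nearer other library, red for higher and blue for lower, with gray where a gate had under 20 counts. The 4 layer columns (left of the line, after all excitatory nuclei) keep the color of each row, and the GABA, astrocyte and oligodendrocyte columns keep it for most rows, with *Pxdn* and *Adamts20* as the rows that turn in oligodendrocyte nuclei.

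The positions of the members were taken from the GENCODE M21 annotation of GRCm38, the build of the files. Chromosome 8 held 7 of the 49 members (14.3%) and 5.21% of the tested genes, and chromosomes 7 and 12 held 5 each. Chromosome X held 0 of the members and 2.72% of the tested genes. One run of 3 members within 1 Mb was found on chromosome 8 (*Mri1*, *Junb* and *Asna1*, chr8:84249906-85025281), which spans 775 kb and 12 tested genes. In it *Junb* and *Asna1* were higher, within a span of 50.8 kb that includes both genes, and *Mri1* was lower. Of the 96 nearest tested neighbors that do not overlap a member, 0 were members and 1 was past 1.5-fold, *Rp9* beside *Ecsit*. Of 7 tested genes that overlap a member, 1 was past 1.5-fold, *Rnpc3* at *Amy1*.

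Non-coding genes were 8 of the 49 members (16.3%) and 3.39% of the tested genes. The highest CPM over the libraries had a median of 80.8 over the members and of 93.7 over all tested genes, and 59.2% of members and 54.0% of tested genes were under 100 CPM. Another annotated gene overlapped 14 members, on the opposite strand for 13. Of the 48 members with a transcript sequence, 4 (8.33%) had over 50% of their end words in another gene, beside 1.31% of tested genes. Beside *Gm17167*, *Gm12027*, *mt-Nd3* and *Rpl29*, the next was *Atp5g2* at 49.6%. The end of *AC149090.1* could not be checked in this way, since it had no transcript sequence.

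Genes at which the strains are known or thought to differ were read whatever their level. *Itpr3*, the inositol trisphosphate receptor whose tufted allele the BTBR strain name carries, was at 1.04, 2.70 and 1.69 CPM and too low to compare. *Nnt*, the mitochondrial transhydrogenase that C57BL/6J mice lack in function, was at 19.2, 13.1 and 11.3 CPM. *Disc1*, a scaffold gene, was at 1.53, 1.54 and 1.92 CPM, *Kmo*, an enzyme of tryptophan breakdown, at 0.382, 0.338 and 0.408 CPM, and *Draxin*, a repulsive axon guidance cue, at the limit of counting. *Gabra2*, a GABA-A receptor subunit, was at 157, 138 and 124 CPM. Apart from *Nav1*, none of these was past 1.5-fold in the excitatory gate.

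No gene of the synaptic lists was past 1.5-fold. Of 7 tested AMPA and kainate receptor genes, 3 NMDA receptor genes, 10 GABA receptor genes, 24 synaptic scaffold and adhesion genes and 19 axon guidance genes, 0 were past 1.5-fold in either direction, beside 3.34% of all tested genes. The same held for 26 potassium channel genes, 19 sodium and calcium channel genes, 22 vesicle release genes and 8 clock genes. Read against that background, a count of 0 in lists of this size is no result about them. Among the marker lists, *Adarb2*, an interneuron gene, was at 29.3, 26.0 and 56.8 CPM. No gene of the MHC class I list reached 50 CPM, but 3 of its 17 genes were lower past 2-fold below that limit, beside 2.55% of 11834 genes under 50 CPM with at least 20 counts in 1 library. *H2-T24* was at 26.2, 15.5 and 2.10 CPM, *H2-T23* at 16.2, 25.1 and 7.52 CPM and *H2-T22* at 18.9, 17.7 and 7.81 CPM, the 3 being picked out after their values were seen. The other 14 genes of the list summed to 71.3, 90.2 and 88.0 CPM, with BTBR between the others. These genes have close paralogs, and their reads may be split among them.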

How the data were processed

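The authors deposited a filtered matrix of UMI counts per gene and nucleus for each of 3 libraries, and the values are whole counts that were not normalized. Per the labels and the study's methods, nuclei were pooled within a group, sorted, captured with a droplet 3′ tag kit, and processed with Cell Ranger 6.0.0 against mm10. The BTBR library is not described in the methods, and its steps are taken from the shared labels. The matrices held 15402 (C57BL/6), 14623 (*Nav1* KO) and 15238 (BTBR) barcodes with 39757390, 52124992 and 49842899 counts, of which 14630, 14056 and 14778 nuclei were kept. The number of BTBR cells in the series' own text equals its barcodes before this filter.

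Counts of gated nuclei were added up gene by gene in each library and scaled to 1000000 (CPM). Levels carry exact Poisson intervals, and ratios exact ones based on how a binomial divides the counts of a pair of libraries, both at 95%. No test was made, since each group is 1 library. For the folds, counts under 3 were set to 3 in each library. The members, gene lists and named genes were chosen with earlier results of these data known. The named genes are the 15 members of highest ratio and the 15 of lowest ratio, the strain list, up to 2 genes per list and direction past 1.5-fold, and runs of 3 members within 1 Mb. The other members, and genes below 50 CPM, were named after their values were seen. Some genes, 1 member among them, are not reported here but stay in the counts. The steps were tested on simulated data. Doublets were not called, and nuclei with marker genes of both neuron classes were left out by the gate. Alternatives were other gates, scalings, depths, folds, expression limits and single comparison libraries. End sharing was read from GENCODE M21 transcripts (31-base words, last 500 bases, forward strand). Python 3.11.15, numpy 2.4.6, scipy 1.17.1, pandas 2.3.3 and matplotlib 3.10.9 were used.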

Additional observations from a re-analysis of the deposited data

Results flagged for a closer look

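Members of opposite direction in other nuclei drew attention. In the oligodendrocyte gate BTBR was below both other libraries for *Adamts20*, with a log2 ratio to the nearer library of -0.50, while it was above both in excitatory nuclei (1.52). For *Pxdn* it was above both, at 0.37, while it was below both in excitatory nuclei (-1.65). The BTBR counts in that gate were 7 and 9, and the difference between the gates was not tested.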

How the results depend on the processing

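Under the 10 alternatives that changed the nuclei, the weights or the scaling, the number of genes at least 2-fold higher was between 17 and 24 and the number lower between 26 and 30, beside 21 and 28. The numbers moved with the limits. With at least 20 CPM in any library they were 46 and 62, with at least 100 CPM 6 and 14, and with no CPM limit but 20 counts in 1 library 235 and 330. At 1.5-fold they were 61 and 69 and at 3-fold 6 and 14. Against C57BL/6 alone they were 34 and 47 and against *Nav1* KO alone 26 and 32. For the 41 named genes, 820 ratios were recomputed under these alternatives. Of these ratios, 736 stayed within the counting interval, 84 moved beyond it and 21 moved by over 1.5 times. Some ratios of genes with few counts crossed 1. With equal weight of the 4 layer gates, the ratio to C57BL/6 went from 1.63 to 0.801 for *Itpr3* and from 1.07 to 0.516 for *Kmo*. No paired analysis was possible because each group is 1 library. Depth limits the oligodendrocyte gate most, where 12 members had under 20 counts.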
